A study of Mus musculus with 18 samples.

Results

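The lipid droplet coat and lipolysis genes are 10 genes taken by symbol from the 54532 genes listed in each of the deposited tables: the perilipins Plin2, Plin4 and Plin5, the CIDE genes Cidea, Cideb and Cidec, the lipases Pnpla2 and Lipe, and the lipase regulators Abhd5 and G0s2. They were measured by RNA-seq in the livers of 18 wild-type male C57BL/6J mice, 1 library per mouse, all fasted overnight before harvest. Mice were put on diets at about 1 month of age. The 5 Ctrl mice ate a control diet and the 5 B2D mice ate a diet deficient in vitamin B2 (riboflavin, the precursor of the flavin cofactors), each for 1 month. The 4 Ctrl+FF and 4 B2D+FF mice ate these diets for 9 weeks, were gavaged daily with fenofibrate in weeks 7 to 9, and received fenofibrate 2 hours before harvest. Fenofibrate is a drug that activates PPARα, the nuclear receptor that turns on genes of fat use in the fasted liver. The experiments with and without fenofibrate also differ in time on diet and were normalised in separate tables, so the drug, the time and the table cannot be told apart and no level was tested across them. Only the diet effects, each taken within its own table, were compared.

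Hepatocytes keep spare fatty acids as triglyceride in lipid droplets, and fasting floods the liver with fatty acids from adipose tissue. Perilipins coat the droplet and limit or organise the access of lipases, and CIDE proteins bring droplets into contact and pass lipid from the smaller to the larger one. ATGL, the product of Pnpla2, makes the first cut in triglyceride. ABHD5 activates ATGL and G0S2 inhibits it, and HSL, the product of Lipe, acts on the diglyceride that remains. Plin2, Cidea and Cidec are known targets of PPARα in mouse liver.

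The sequences before the transcription start are shown for the genes that rose in B2D+FF (Cidec and Pnpla2) and for Plin2. Of the members searched, Plin2 alone held a match to the PPARα motif in its start region. The sequences are the RefSeq windows of build GRCm38.p6, written 5′ to 3′ on the strand of the gene and ending at the base before the start. Capitals mark the match, and a window with no capitals held none.
Plin2, chr4:86670060-86670309, minus strand: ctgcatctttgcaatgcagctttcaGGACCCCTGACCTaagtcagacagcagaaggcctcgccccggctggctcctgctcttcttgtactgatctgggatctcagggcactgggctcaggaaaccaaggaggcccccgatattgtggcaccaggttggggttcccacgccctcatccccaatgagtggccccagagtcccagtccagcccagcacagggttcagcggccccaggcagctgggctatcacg
Cidec, upstream start, chr6:113435761-113436010, minus strand: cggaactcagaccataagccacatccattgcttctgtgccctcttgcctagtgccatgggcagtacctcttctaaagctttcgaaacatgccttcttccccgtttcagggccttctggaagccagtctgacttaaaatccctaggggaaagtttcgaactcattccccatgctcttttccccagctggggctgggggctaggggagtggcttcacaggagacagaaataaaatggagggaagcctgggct
Cidec, downstream start, chr6:113434765-113435014, minus strand: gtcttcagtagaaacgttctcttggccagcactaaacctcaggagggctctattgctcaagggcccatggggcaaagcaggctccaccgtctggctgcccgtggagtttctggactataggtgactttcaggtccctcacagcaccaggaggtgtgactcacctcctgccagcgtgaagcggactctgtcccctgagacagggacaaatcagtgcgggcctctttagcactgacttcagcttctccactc
Pnpla2, chr7:141454938-141455187, plus strand: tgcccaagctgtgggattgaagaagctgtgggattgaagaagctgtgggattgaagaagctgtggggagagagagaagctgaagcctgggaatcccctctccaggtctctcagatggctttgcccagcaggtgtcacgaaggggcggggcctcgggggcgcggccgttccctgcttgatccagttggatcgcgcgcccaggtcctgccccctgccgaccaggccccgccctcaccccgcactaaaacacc
PPARα binds with RXR to DR1 elements, which are repeats of the core AGGTCA with 1 base between them. Windows of 300 bases, with 250 before and 50 after the start, were searched on both strands for the exact core and for DR1 with at most 2 mismatches. RefSeq windows matched 9 of the 10 members, with 12 windows in all. No window was given for Cidea, which was not searched. The DR1 match of Plin2 began at position -225 from the start, with 2 mismatches, and lay on the strand opposite to the one printed. It contained the exact core that Plin2 also held, which reads TGACCT in the printed capitals. DR1 matches were present in 3.86% of the 32851 mouse windows. The exact core was present in windows of Plin2, Abhd5 and Plin5, and in 16.3% of all windows. A match is a run of letters and not a measured binding site.

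Libraries held 15320729 to 21266792 reads on genes without fenofibrate and 16290762 to 21898502 with it, as recovered from the deposited values. Values are FPKM, the fragments per kilobase of gene scaled by library size. Tests were made by limma on log2(FPKM + 1) over all genes with a mean of at least 0.5 FPKM, with Benjamini-Hochberg adjustment and a threshold of 0.05. Log2 differences are given as deficient minus control diet on that scale, which understates the change of low genes. Summed FPKM of 6 hepatocyte markers was 31872 to 46342 in the livers without fenofibrate and 18734 to 24214 in the separately normalised livers with it. Alb alone gave 18619 to 32366 and 11460 to 17148 of it, so the sum mostly follows Alb and is not a count of hepatocytes. A gene of lower level in bulk liver may reflect fewer cells of a type or less RNA per cell, which cannot be told apart.

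**Figure D1:**
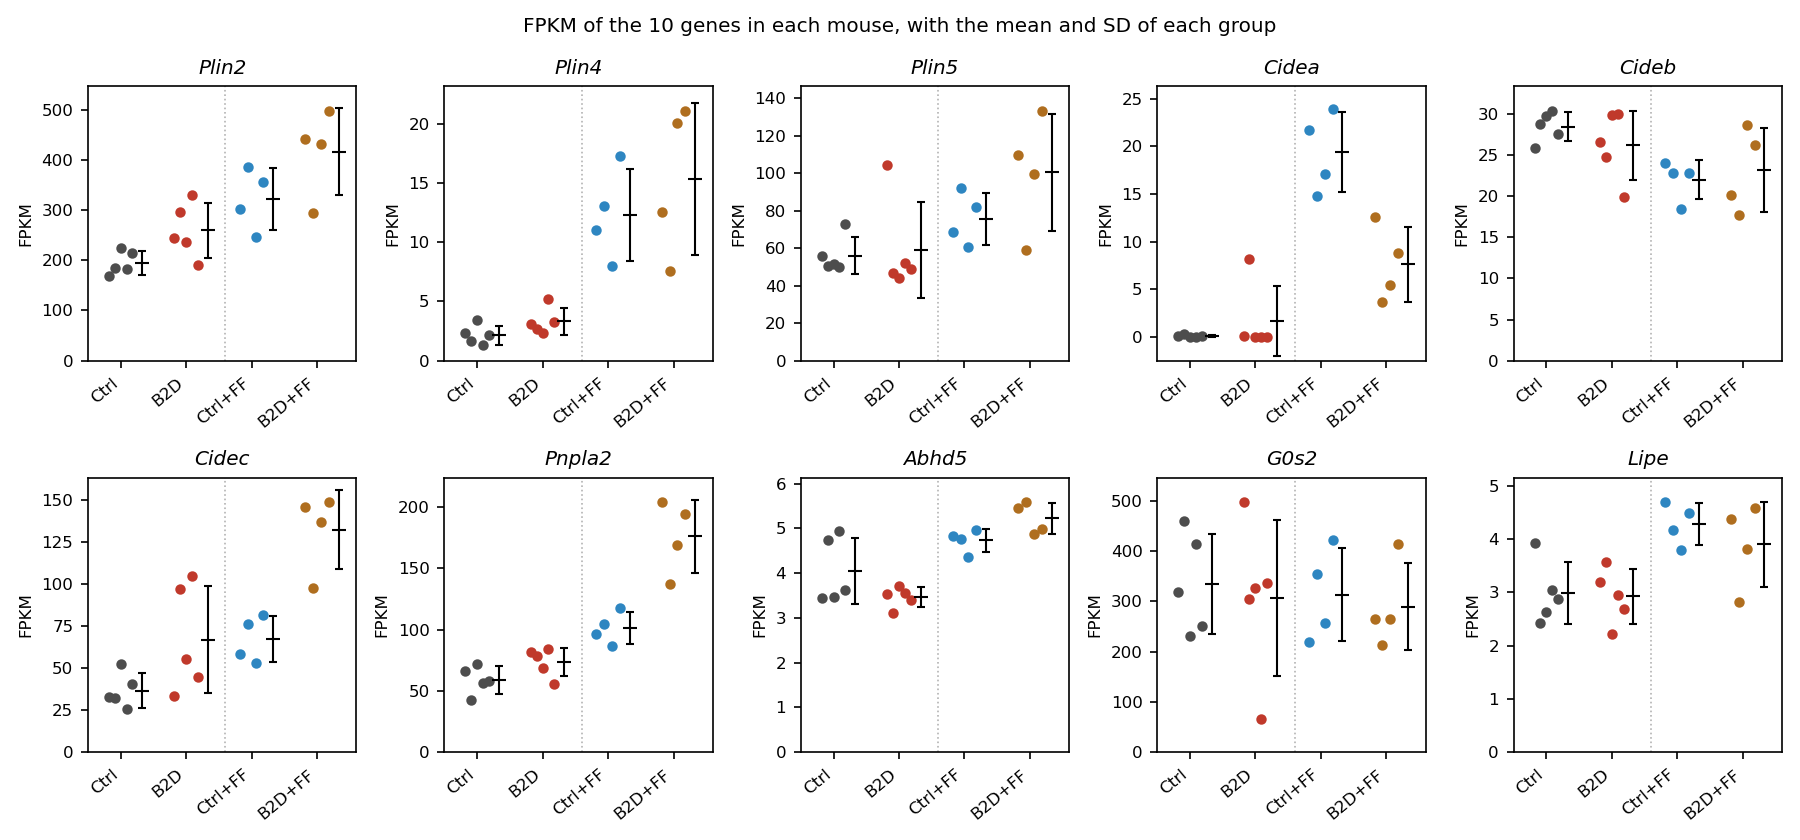
FPKM (vertical axis, linear, 1 panel per gene) of the 10 genes in each mouse of the 4 groups, with the mean and SD of each group as a black bar; the dotted line parts the separately normalised tables. In the livers with fenofibrate, all 4 B2D+FF points lay above the Ctrl+FF points for Cidec and Pnpla2 and below them for Cidea.

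The members differed widely in level. By FPKM, which is scaled by gene length, the order in Ctrl was G0s2 (mean 334 ± 99.5 FPKM, SD, n = 5, rank 153 of all genes listed), Plin2 (195 ± 23.1, rank 260), Pnpla2 (59.1 ± 11.3), Plin5 (56.1 ± 9.72), Cidec (36.7 ± 10.2), Cideb (28.4 ± 1.79), Abhd5 (4.04 ± 0.734), Lipe (2.99 ± 0.580), Plin4 (2.16 ± 0.807) and Cidea at the floor. The ranges of neighbours overlapped from Pnpla2 to Cideb and from Abhd5 to Plin4. In Ctrl+FF the first places were Plin2 (322 ± 61.3 FPKM, SD, n = 4) and G0s2 (313 ± 92.3), whose ranges overlapped, and Cidea stood in place 7 with 19.4 ± 4.18 FPKM.

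Without fenofibrate, no member passed the test between B2D and Ctrl, where 313 of 11574 genes did (89 higher and 224 lower, 2.7% of genes). All 10 members were tested, and Cidea entered only through B2D 2. The members with an unadjusted p under 0.05 numbered 3, namely Cidec, Plin2 and Plin4, where 2124 of the 11574 genes tested had one. Limma voom on the recovered reads also called 0 members. The groups overlapped for each of the 10, where 4.98% of all genes tested had groups that did not overlap. The median log2 difference was 0.17 over the members and -0.0013 over all genes tested.

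Plin2, the main perilipin of the hepatocyte droplet (GRCm38, chr4:86648386-86670060), was at 169, 184, 224, 183 and 214 FPKM in Ctrl and at 244, 296, 237, 331 and 191 in B2D. B2D 5 lay among the control mice and the other B2D mice lay above them all. The log2 difference was 0.40 (95% interval 0.06 to 0.73, adjusted p = 0.192). Plin4, a perilipin of nascent droplets that is most abundant in fat and muscle, was at 2.30, 1.65, 3.41, 1.29 and 2.14 FPKM in Ctrl and at 3.09, 2.67, 2.37, 5.24 and 3.27 in B2D. The log2 difference was 0.46 (0.04 to 0.88, adjusted p = 0.234), with Ctrl 3 above 4 of the B2D mice. Plin5, which ties droplets to mitochondria and binds ATGL and ABHD5, was at 56.1, 50.3, 51.4, 49.7 and 72.9 FPKM in Ctrl and at 105, 46.8, 43.8, 52.1 and 48.6 in B2D. B2D 1 alone stood high, and the log2 difference was 0.01 with it (-0.46 to 0.48, adjusted p = 0.983) and -0.21 without it (adjusted p = 0.395).

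Cidec, which enlarges droplets in fatty liver (chr6:113424634-113435760), was at 32.5, 32.3, 52.3, 25.7 and 40.4 FPKM in Ctrl and at 33.4, 96.9, 55.3, 105 and 44.5 in B2D. B2D 2 and B2D 4 stood far above the control range and B2D 1 and B2D 5 within it. The mean was 1.83-fold that of Ctrl, and the log2 difference of 0.76 (0.10 to 1.41) did not pass (adjusted p = 0.205). Cideb, a CIDE gene of hepatocytes that also loads lipid onto VLDL (chr14:55754050-55758458), was at 25.9 to 30.3 FPKM in Ctrl and 19.9 to 30.02 in B2D, with a log2 difference of -0.13 (-0.39 to 0.13). Cideb shares 1136 exon bases with Nop9 on the opposite strand, and whether the counting used strand is not given in the sources used here. Nop9 was at 3.56 to 5.67 FPKM in the 18 livers.

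Cidea is abundant in brown fat and is normally low in lean liver. It was at 0.0483, 0.247, 0, 0 and 0.123 FPKM in Ctrl, from 0 to 5 reads, and at 0.0933, 8.15, 0, 0 and 0 in B2D. B2D 2 alone held more than 5 reads, with 162. The same library held 5 defining adipocyte markers (Adipoq, Lep, Retn, Plin1 and Ucp1) at a summed 15.7 FPKM. The other 9 livers without fenofibrate held 0 to 0.413, and each had 3 to 5 of the 5 at 0 reads. These 5 were set apart from the 10 adipocyte markers listed, and the planned lists did not name this subset. The full list of 10 adipocyte markers summed to 42.3 to 343 FPKM in Ctrl and 22.6 to 86.5 in B2D, of which Car3, a gene that these livers also hold where Adipoq is near 0, gave 39.9 to 339 and 19.0 to 41.1. Ucp1, the uncoupling protein of brown fat, was at 7.05 FPKM in B2D 2 (197 reads) and at 0 to 0.0352 in those 9. The log2 difference of Cidea was 0.55 (adjusted p = 0.603), and without B2D 2 the gene fell below the 0.5 FPKM filter and was not tested. The part of adipocyte RNA in the levels of B2D 2 was not tested. Without B2D 2 the log2 difference of Cidec was 0.57 (adjusted p = 0.401). B2D 4, whose 5 markers summed to 0.0857 FPKM, had 105 FPKM of Cidec.

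None of the lipolysis genes passed without fenofibrate. Pnpla2 (chr7:141455198-141460743) was at 66.6, 42.5, 72.1, 56.4 and 57.8 FPKM in Ctrl and at 81.5, 78.4, 68.7, 84.1 and 55.8 in B2D, and the log2 difference was 0.32 (-0.02 to 0.66, adjusted p = 0.303). G0s2 (chr1:193272161-193273217) was at 318, 459, 232, 413 and 250 FPKM in Ctrl and at 496, 305, 327, 65.5 and 337 in B2D. B2D 4 was far below every other mouse for G0s2, and it was the highest B2D mouse for Cidec, Plin2, Plin4, Pnpla2 and Cideb. The log2 difference of G0s2 was -0.33 with B2D 4 and 0.16 without it, and neither passed (adjusted p = 0.734 and 0.775). Abhd5 (chr9:122351608-122381524) was at 3.45 to 4.94 FPKM in Ctrl and 3.12 to 3.72 in B2D. Lipe (chr7:25379527-25398710) was at 2.43 to 3.93 FPKM in Ctrl and 2.23 to 3.57 in B2D. Their log2 differences were -0.17 (-0.39 to 0.06) and -0.02 (-0.29 to 0.25), and that of Lipe turned to 0.0042 under upper-quartile rescaling.

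In the livers with fenofibrate, the deficient diet went with more Cidec and Pnpla2 and less Cidea. These 3 of 10 members passed where 529 of 11878 genes did (4.45%), 266 higher and 263 lower, or 223 and 366 under upper-quartile rescaling. With no filter on low values none of the 3 passed (adjusted p = 0.0545 for Cidec, 0.0535 for Pnpla2 and 0.112 for Cidea), and with all 4 groups in 1 fit Pnpla2 passed and Cidec (0.0820) and Cidea (0.189) did not. The same 3 members had groups that did not overlap, as did 14.3% of all genes tested. The median log2 difference was 0.18 over the members and 0.01 over all genes tested.

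Cidec was at 58.6, 76.0, 53.0 and 81.5 FPKM in Ctrl+FF and at 146, 97.9, 137 and 149 in B2D+FF. The lowest B2D+FF mouse lay above the highest Ctrl+FF mouse, and the mean was 1.97-fold that of Ctrl+FF. The log2 difference was 0.97 (0.57 to 1.37, adjusted p = 0.0187). Pnpla2 was at 96.8, 104, 86.5 and 118 FPKM in Ctrl+FF and at 204, 137, 169 and 195 in B2D+FF, a mean 1.74-fold higher, with a log2 difference of 0.78 (0.45 to 1.11, adjusted p = 0.0203). A gene that enlarges droplets and the gene of the first lipase were both higher in these 4 livers.

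Cidea was at 21.7, 14.8, 17.1 and 23.9 FPKM in Ctrl+FF and at 12.6, 3.63, 5.44 and 8.76 in B2D+FF. All 8 livers held it, with 86 to 472 reads, against 0 to 5 reads in 9 of the 10 livers without fenofibrate. The mean was 2.55-fold lower in B2D+FF, and the log2 difference was -1.34 (-2.02 to -0.65, adjusted p = 0.0427). Cidea and Cidec, genes of 1 family, changed in opposite directions. The 5 defining adipocyte markers summed to 4.67 FPKM in Ctrl+FF 1, with Ucp1 at 1.49, and to 0.0417 to 0.377 FPKM in the other 7 livers, which had Cidea at 3.63 to 23.9. Of the 10 adipocyte markers listed, 5 were tested with fenofibrate and 2 fell, Cfd (-2.21) and Adrb3 (-0.80). The other 3 did not pass, with Car3 at -1.43 (adjusted p = 0.0625), Fabp4 at 0.80 and Aqp7 at 0.42 (adjusted p = 0.314 for each). Cfd (adipsin) was at 6.21 to 19.6 FPKM in Ctrl+FF and 0.587 to 4.34 in B2D+FF. The list summed to 142 to 301 FPKM in Ctrl+FF and 129 to 188 in B2D+FF, most of it Car3 (96.6 to 242 and 40.2 to 105) and Fabp4 (29.5 to 41.2 and 32.7 to 141). The part of these markers in the Cidea result was not tested.

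**Figure D2:**
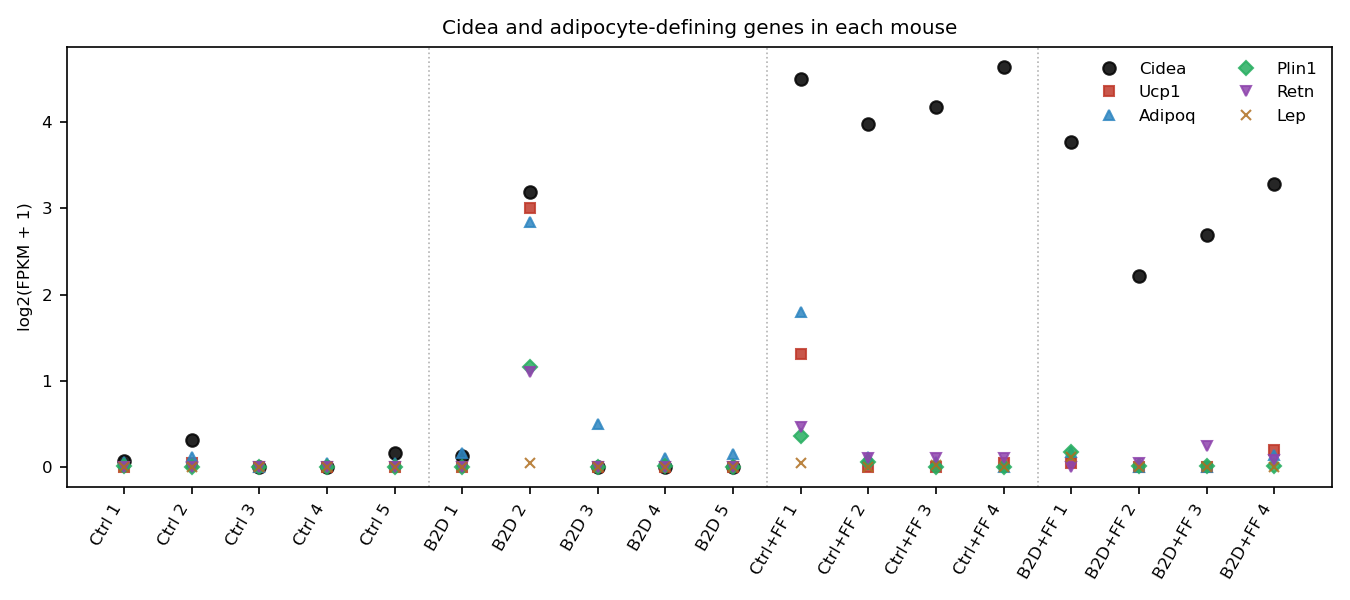
Level of Cidea and of the 5 defining adipocyte genes, as log2(FPKM + 1) on the vertical axis, in each of the 18 mice on the horizontal axis; dotted lines part the groups. In B2D 2 the 5 genes summed to 15.7 FPKM (Ucp1 7.05) beside Cidea at 8.15. They summed to at most 0.377 FPKM beside Cidea in 7 of the 8 livers with fenofibrate. Of the listed adipocyte markers not shown, Fabp4 was at 29.5 to 141 FPKM and Cfd at 0.587 to 19.6 in those 8 livers.

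Leaving out 1 mouse often ended a call. Directions held in all 8 fits that each left out 1 mouse, but Cidec passed in 4 of them, Pnpla2 in 3 and Cidea in 1. Cidec was lost without Ctrl+FF 1, Ctrl+FF 3, B2D+FF 1 or B2D+FF 4 (adjusted p = 0.0689, 0.0525, 0.0523 and 0.0545). Pnpla2 was lost without those mice (adjusted p = 0.0726, 0.0569, 0.0517 and 0.0594) and without Ctrl+FF 2 (0.0660). Cidea passed only without B2D+FF 1 (adjusted p = 0.0225), and without Ctrl+FF 1, which held adipocyte markers, its log2 difference was -1.28 (adjusted p = 0.118). Its adjusted p without each of the other 6 mice was 0.0562 without B2D+FF 2, 0.0718 without B2D+FF 4, 0.0756 without B2D+FF 3, 0.0788 without Ctrl+FF 2, 0.0843 without Ctrl+FF 3 and 0.0893 without Ctrl+FF 4.

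The other members did not pass with fenofibrate. Plin2 was at 303, 385, 246 and 356 FPKM in Ctrl+FF and at 442, 294, 432 and 497 in B2D+FF, with a log2 difference of 0.36 (-0.07 to 0.79, adjusted p = 0.317). In B2D+FF, mouse 2 lay among the controls and the other mice above them. Plin5 was at 68.4, 92.0, 60.4 and 81.7 FPKM in Ctrl+FF and at 110, 58.9, 99.5 and 133 in B2D+FF, with a log2 difference of 0.36 (-0.17 to 0.90, adjusted p = 0.420). B2D+FF 2 lay just below every Ctrl+FF mouse for Plin5 and the other B2D+FF mice lay above them all. Plin4 was at 8.01 to 17.2 FPKM in Ctrl+FF and 7.60 to 21.1 in B2D+FF, and the separately normalised livers without fenofibrate were at 1.29 to 5.24 FPKM. Plin4 (chr17:56100591-56109803) lies 1797 bases from Plin5 (chr17:56111601-56117596) on the same strand. Its log2 difference with fenofibrate was 0.24 (-0.46 to 0.95).

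G0s2 was at 220, 355, 256 and 422 FPKM in Ctrl+FF and at 265, 212, 265 and 413 in B2D+FF, so the groups covered nearly the same range. Its log2 difference was -0.11 (-0.67 to 0.45). Abhd5 was at 4.36 to 4.97 FPKM in Ctrl+FF and 4.88 to 5.58 in B2D+FF (0.12, -0.05 to 0.28), and Lipe at 3.79 to 4.69 and 2.82 to 4.59 (-0.12, -0.40 to 0.16). Cideb was at 18.5 to 24.0 and 17.7 to 28.6 FPKM, with a log2 difference of 0.05 (-0.30 to 0.40) that turned to -0.0066 under upper-quartile rescaling. Abhd5 and Lipe each share exon bases with an antisense gene, which was at no more than 0.30 FPKM in any liver.

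With fenofibrate, most members were lowest in the same mouse of a group. B2D+FF 2 was the lowest of its group for 9 of the 10 members, all but Abhd5, and Ctrl+FF 3 was the lowest of its group for 8. Ctrl+FF 4 and B2D+FF 4 were each the highest of their group for 6. The share of all genes that were lowest or highest in each mouse was not counted, so this pattern cannot be called particular to the members. Outside the members, Apoa1 was also lowest in B2D+FF 2 (2640 FPKM, against 5938 to 6894 in the rest of its group). Alb was highest there (13198 FPKM, against 11460 to 12132). All FPKM of a library share its normalisation, and the part of normalisation in this pattern was not tested. Without B2D+FF 2 the log2 difference was 1.11 for Cidec (adjusted p = 0.0094), 0.90 for Pnpla2 (adjusted p = 0.0093) and -1.08 for Cidea (adjusted p = 0.0562).

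**Figure D3:**
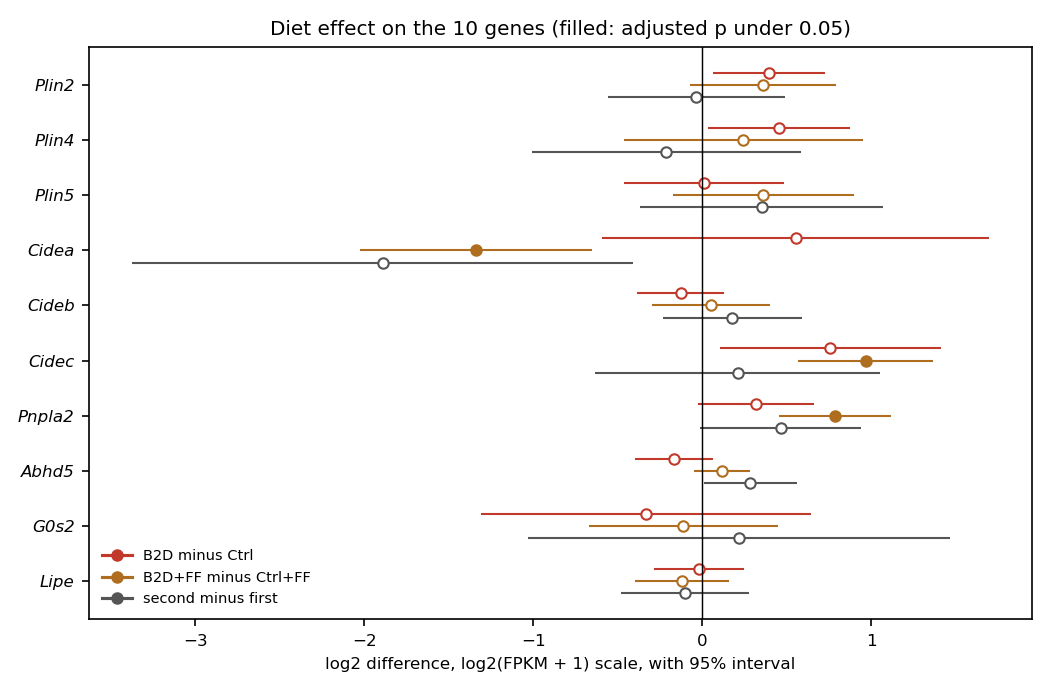
Log2 difference between deficient and control diet (horizontal axis, log2(FPKM + 1) scale) with its 95% interval for each gene, without fenofibrate, with it, and the second minus the first; filled points passed the adjusted threshold. Cidec (0.97), Pnpla2 (0.78) and Cidea (-1.34) passed with fenofibrate, and no member passed in the other sets.

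Whether the diet effect differed between the experiments was tested as the difference of the differences. No member passed, where 27 of 11862 genes did (0.228%). An unadjusted p under 0.05 was held by 2 members and by 1411 of all genes tested. The 2 members were Cidea (-1.89, adjusted p = 0.293) and Abhd5 (0.28, adjusted p = 0.398). In every liver without fenofibrate but B2D 2, Cidea was at 0 to 5 reads, so a fall with diet could not be seen there. The value of Cidea thus restates its -1.34 with fenofibrate and the 0.55 that rests on B2D 2. With limma voom the count of members was also 0. For Cidec the diet differences were 0.76 and 0.97 and their difference 0.21 (-0.63 to 1.05). For Pnpla2 they were 0.32 and 0.78 and their difference 0.46 (-0.01 to 0.94, adjusted p = 0.427). The larger values with fenofibrate were not shown to differ from those without it. Leaving out both B2D 2 and Ctrl+FF 1, an alternative chosen after seeing the data, gave -1.20 for Cidea (adjusted p = 0.249) and again 0 members. With B2D 2 out, Cidea was near the floor in all livers left without fenofibrate, so the -1.20 rests on the livers with it.

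The balance between functional partners was taken as the ratio of their FPKM within each mouse, which is free of the scaling of the library. G0s2 to Pnpla2, the inhibitor per lipase, was 2.27, 3.40, 2.96 and 3.59 in Ctrl+FF and 1.30, 1.55, 1.57 and 2.12 in B2D+FF. The groups did not overlap, and the log2 difference was -0.90 (exact permutation test, two-sided p = 0.0286, adjusted p = 0.0571 over 6 ratio tests). Without fenofibrate it was 4.77, 10.8, 3.21, 7.32 and 4.33 in Ctrl and 6.09, 3.89, 4.76, 0.780 and 6.04 in B2D, and the difference of -0.66 (exact p = 0.389) shrank to -0.12 without B2D 4. Abhd5 to Pnpla2, the activator per lipase, was 0.0423 to 0.0503 in Ctrl+FF and 0.0256 to 0.0407 in B2D+FF, and the log2 difference was -0.65 (exact p = 0.0286, adjusted p = 0.0571). Without fenofibrate it was 0.0480 to 0.112 in Ctrl and 0.0398 to 0.0608 in B2D (-0.53, exact p = 0.0794, adjusted p = 0.0952).

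Cidec to Cideb was 2.44, 3.34, 2.87 and 3.57 in Ctrl+FF and 7.26, 5.53, 4.79 and 5.66 in B2D+FF, with a log2 difference of 0.93 (exact p = 0.0286, adjusted p = 0.0571). Without fenofibrate it was 1.26, 1.12, 1.76, 0.846 and 1.47 in Ctrl and 1.26, 3.93, 1.85, 3.49 and 2.24 in B2D, with a log2 difference of 0.91 (exact p = 0.0397, adjusted p = 0.0595). Without B2D 1 this last difference was 1.13 and passed (adjusted p = 0.0429). That p was adjusted over the same 6 tests, so it also depends on the 3 ratios with fenofibrate. The smallest two-sided p of 4 against 4 mice is 0.0286, and of 5 against 5 it is 0.0079. None of the 6 ratios passed after adjustment, and all 3 with fenofibrate stood at the smallest p their design allows. With fenofibrate the log2 differences of G0s2 (-0.11), Abhd5 (0.12) and Cideb (0.05) were small. The 3 ratios thus mostly restate the differences of Pnpla2 (0.78) and Cidec (0.97) and are not separate evidence.

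**Figure D4:**
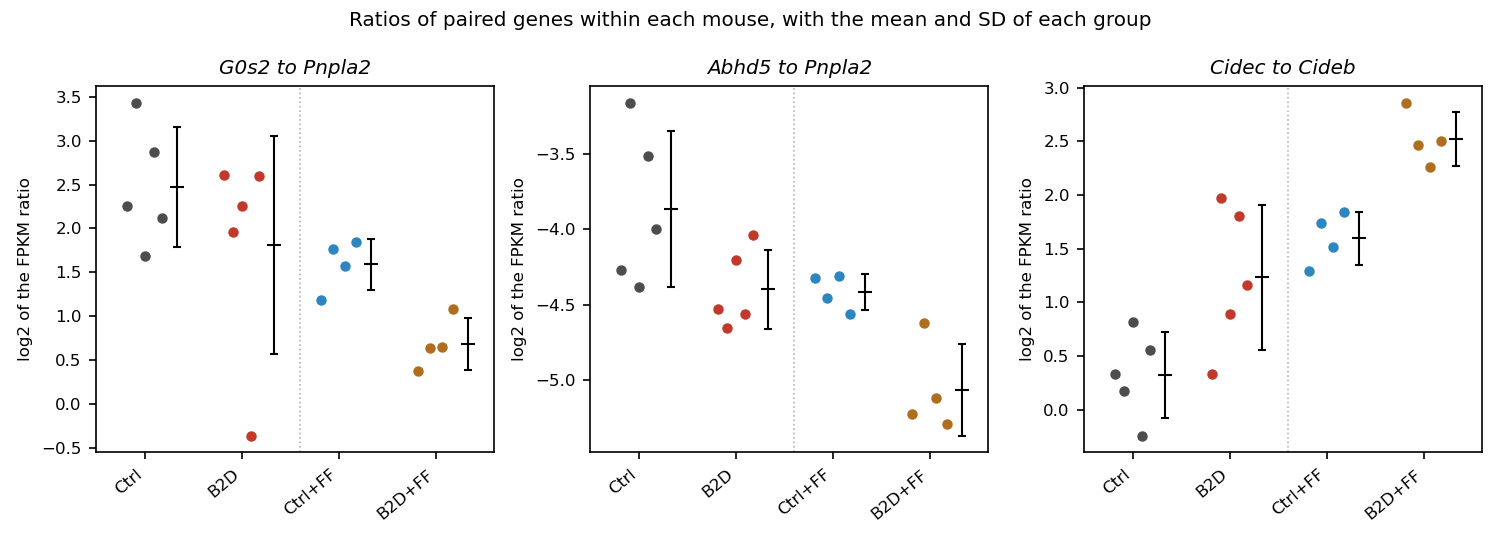
Log2 of the FPKM ratio of paired genes (vertical axis) in each mouse of the 4 groups, with the mean and SD of each group as a black bar. With fenofibrate, G0s2 to Pnpla2 and Abhd5 to Pnpla2 were lower and Cidec to Cideb higher in every B2D+FF mouse than in every Ctrl+FF mouse.

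Other genes of lipid metabolism were read beside the members from listed pathways. Of 13 other droplet surface and assembly genes tested, Fitm1, whose protein binds triglyceride in the endoplasmic reticulum, fell in B2D (-0.85) and in B2D+FF (-0.78). Hilpda, which encodes another inhibitor of ATGL, rose in B2D+FF (1.51), from 1.93 to 4.46 FPKM in Ctrl+FF to 7.40 to 13.3. The median of this list was -0.09 without and 0.15 with fenofibrate.

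Of 15 other lipases and hydrolases tested, 4 fell in B2D and 0 rose. They were Ces3a (-1.15), Ces3b (-1.18), Ces1f (-0.996) and Aadac (-0.63), enzymes of the endoplasmic reticulum that hydrolyse esters. In B2D+FF 3 fell, Ces3a (-1.49), Ces3b (-1.54) and the hepatic lipase gene Lipc (-0.61), and 0 rose. Carboxylesterase genes have close copies between which reads can be split, so the value of each is uncertain. The medians were -0.27 and -0.21.

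Of 18 genes of triglyceride and steryl ester synthesis tested, none passed in B2D. Of these, 6 had an unadjusted p under 0.05, as did 2124 of all 11574 genes tested. In B2D+FF, Lpin1, a phosphatidate phosphatase, rose (1.69), as did Acsl4 (0.61), which activates long-chain fatty acids, and Agpat2, an acyltransferase, fell (-0.87). Of 16 transcription factors, none passed in B2D (2 with an unadjusted p under 0.05), and in B2D+FF Pparg rose (0.42) while the lipogenic factors Srebf1 (-1.44) and Mlxipl (-0.84) and Cebpa (-0.57) fell. Ppara did not pass in either comparison (-0.03 and -0.30). Of 20 reference targets of PPARα, 18 were tested without fenofibrate and none passed (7 with an unadjusted p under 0.05), and 20 were tested with it, of which Fgf21, the fasting hormone, rose (2.49). Their median was 0.22 in both comparisons.

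Few cell type markers passed. Without fenofibrate Clec4f of 6 macrophage markers fell (-0.47) and Car3 of 6 adipocyte markers tested fell (-2.73). With fenofibrate Tat of 6 hepatocyte markers (1.35) and Lyve1 of 6 endothelial markers (0.77) rose, and 2 of 5 adipocyte markers tested, Cfd and Adrb3, fell as given above. No stellate cell or cholangiocyte marker passed in either comparison. In the difference of the diet effect, no gene of these other lists passed.

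**Figure D5:**
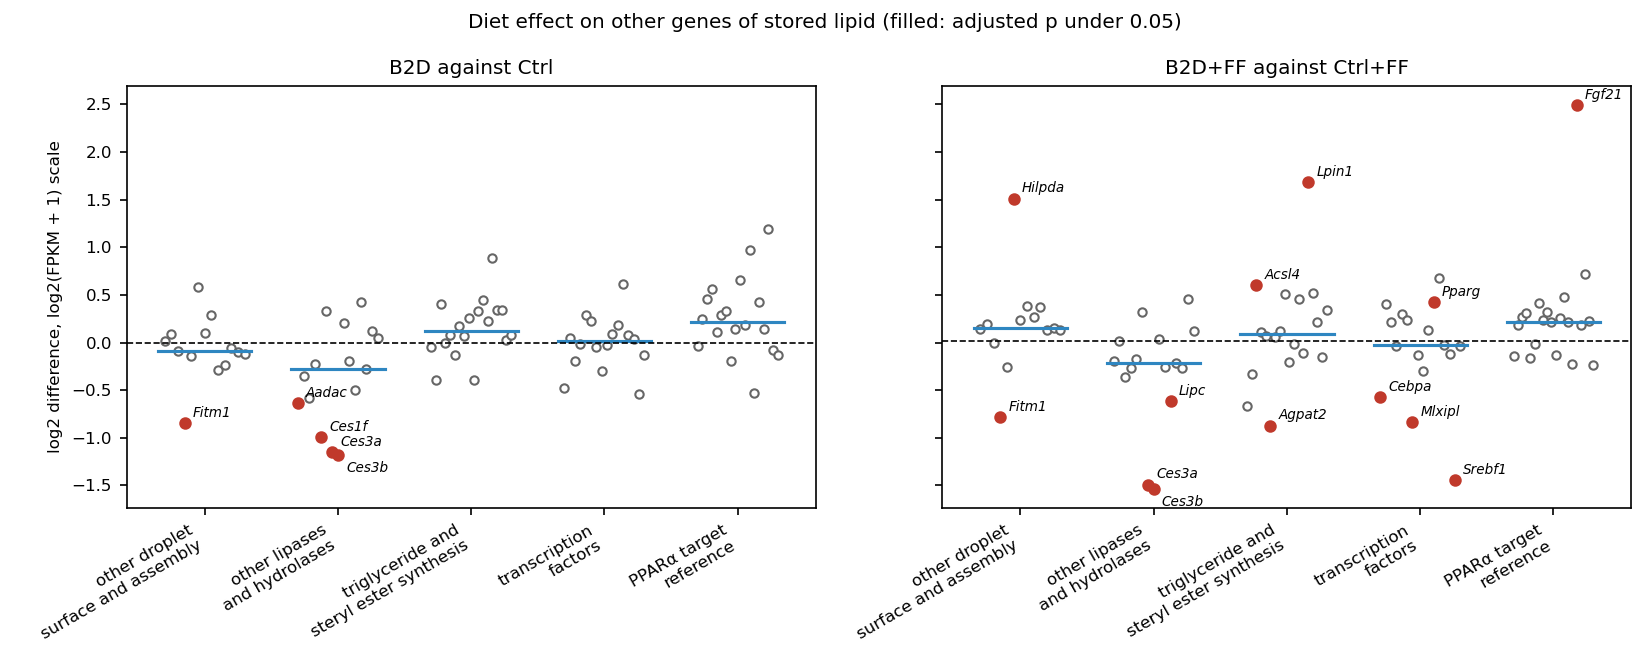
Log2 difference between deficient and control diet (vertical axis, log2(FPKM + 1) scale) for each tested gene of 5 other lists, without (left) and with (right) fenofibrate; blue bars are list medians and the dashed line is the median of all genes tested. Filled points passed, with Ces3a and Ces3b lowest in the lipase list in both and Hilpda (1.51), Lpin1 (1.69) and Fgf21 (2.49) highest in their lists with fenofibrate.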

How the data were processed

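Liver mRNA libraries (NEBNext Ultra kit) were aligned with STAR to mm10 and counted with featureCounts, per the submitters' processing notes, in versions that are not given in the sources used here. The authors deposited FPKM values per gene, in 1 table for the mice without and 1 for the mice with fenofibrate, with GRCm38 coordinates. Reads were recovered as FPKM times gene length over its smallest step, and at least 99.96% of values per library were whole within 0.05 read. Each table was fitted alone with limma 3.58.1 (R 4.3.3) on log2(FPKM + 1), after a filter at a mean of 0.5 FPKM. The difference of the diet effect was fitted over all 18 libraries. Ratios were compared by exact permutation tests (SciPy 1.17.1) of 6 ratios. The fits were tested on simulated data with changes larger than the main log2 difference of any member. How often they find changes of the size seen in the members was not tested. Members and lists were chosen with earlier results of these data known. All members are named, and from the other lists up to 5 genes past the threshold per fit, in order of adjusted p. Mice are numbered in accession order. Lists covered other droplet genes, lipases, synthesis genes, transcription factors, PPARα targets and markers of 6 cell types. Alternatives were the pseudocount, the filter, rescaling, array weights, voom, a pooled fit and leaving out each mouse.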

Additional observations from a re-analysis of the deposited data

Results flagged for a closer look

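Each member and each ratio was examined for a mouse far from the rest of its group, in 52 groups of 4 or 5 mice. Chance marks about 1 in 20 groups, and 4 were marked. Cidea in B2D 2 was 8.15 FPKM, far above the other 4 B2D mice. Plin5 in B2D 1 was 105 FPKM, against 43.8 to 52.1 in the other B2D mice, and Plin5 in Ctrl 5 was 72.9 FPKM, against 49.7 to 56.1 in the other Ctrl mice. The log2 FPKM ratio of G0s2 to Pnpla2 in B2D 4 was -0.36, far below the other B2D mice.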

How the results depend on the processing

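The counts of genes past the threshold, 313 in B2D, 529 in B2D+FF and 27 for the difference of the diet effect, became 67 and 272 with no filter on low values (in the first 2), 731 with all 4 groups in 1 fit (B2D), 885 and 136 with array weights (B2D+FF and the difference), 16 with a pseudocount of 0.1 and 13 with voom (the difference), and 2124, 2519 and 1411 at an unadjusted p. Without both libraries with adipocyte markers the difference called 14. Leaving out each mouse in turn gave 98 to 332, 175 to 596 and 17 to 66 genes. The 3 members past the threshold in B2D+FF became 0 with no filter, where p was adjusted over 24746 genes, 1 in the pooled fit (Pnpla2) and 0 to 2 without each mouse in turn. At an unadjusted p, 3 members passed in B2D and 2 for the difference. Upper-quartile rescaling turned Lipe in B2D to 0.0042 and Cideb in B2D+FF to -0.0066. Leaving out each mouse turned the sign of small log2 differences. The ranges in B2D were -0.078 to 0.060 for Lipe, -0.21 to 0.11 for Plin5 and -0.57 to 0.16 for G0s2. In B2D+FF they were -0.054 to 0.17 for Cideb and -0.30 to 0.046 for G0s2. For the difference they were -0.0024 to 0.40 for Cidec, -0.16 to 0.12 for Plin2, -0.39 to 0.063 for Plin4, -0.27 to 0.46 for G0s2 and -0.18 to 0.013 for Lipe. The log2 ratio of Cidec to Cideb in B2D ranged from 0.72 to 1.13. The cause was not tested. No paired analysis was possible because the labels give the groups no shared numbers. Cidea at 0 to 5 reads is at or near the floor of 3 reads.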
